A study of Mus musculus with 32 samples.

Results

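Whole hearts of 20-week-old mice were compared to ask, gene by gene, whether the effect of the S59L mutation in CHCHD10 (C10) depended on OMA1. C10 sits between the mitochondrial membranes, and OMA1 is a stress-activated protease of the inner membrane. For each gene the interaction was the S59L effect on the OMA1-/- background (C10S59L OMA1-/- minus C10WT OMA1-/-) minus the S59L effect on the OMA1+/- background (C10S59L OMA1+/- minus C10WT OMA1+/-). It used 16 of the 32 arrays of the study, 4 hearts from separate animals in each of the 4 groups, and 19505 genes. A value below 0 means that S59L raised the gene less, or lowered it more, without OMA1.

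C10S59L mice carried the mutation on 1 allele, per the study, and C10WT mice carried none. OMA1+/- mice were heterozygous and OMA1-/- mice homozygous for the OMA1 knockout, both constitutive, so every animal lacked at least 1 working OMA1 allele and no group had both. Each group held 2 males and 2 females, and no treatment was given. RNA came from whole hearts, in which fewer cells of a type and less RNA per cell cannot be told apart.

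The integrated stress response (ISR) slows general translation through phosphorylation of eIF2alpha and raises the translation of ATF4, a transcription factor of amino acid supply. Mitochondria reach it through OMA1, which cleaves DELE1, and cleaved DELE1 activates the eIF2alpha kinase HRI in the cytosol. ATF4 and its partners ATF5, CHOP and C/EBP proteins act on genes of serine and one-carbon metabolism, amino acid transport and tRNA charging. Hearts with mitochondrial disease are known for this program and for secretion of FGF21.

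The interaction passed an adjusted p of 0.05 (limma, Benjamini-Hochberg over all genes) for 14 of 19505 genes, 0.0718% of those tested. It was above 0 for 4 genes (0.0205%) and below 0 for 10 (0.0513%). At an unadjusted p of 0.05 there were 1584 genes (8.12%), 635 above 0 (3.26%) and 949 below 0 (4.87%). By contrast, S59L changed 7117 genes on OMA1+/- (36.5%) and 5817 on OMA1-/- (29.8%). OMA1 loss changed 165 genes in C10S59L hearts (0.846%), and in C10WT hearts it changed 1 (0.00513%), Sult3a2, a sulfotransferase gene that was lower without OMA1 and lay below background. Background was set at a log2 value of 6.59, the 95th percentile of the mean values of 1410 olfactory and vomeronasal receptor genes. Where all 4 arrays of a group lay below it, a simple difference is written "at least" and measured from 6.59. Interactions with such groups are given as fitted and are neither measured sizes nor bounds.

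Oma1 itself was lower in OMA1-/- hearts on average, but its probe set did not resolve the knockout. Its log2 values were 9.75, 9.60, 10.03 and 9.65 in C10WT OMA1+/- hearts (replicates 1 to 4) and 8.97, 9.08, 9.58 and 8.67 in C10WT OMA1-/- hearts. In C10S59L hearts they were 9.36, 10.26, 9.75 and 9.73 on OMA1+/- and 8.93, 9.0, 9.27 and 9.68 on OMA1-/-. The difference was -0.68 in C10WT (adjusted p = 0.804) and -0.56 in C10S59L hearts (adjusted p = 0.39), and the C10S59L groups overlapped. The sources used here do not say which part of the transcript these probes read, so this level does not check the genotype. Chchd10 stood higher in C10S59L OMA1+/- hearts (16.81 ± 0.22, SD) than in C10S59L OMA1-/- hearts (15.93 ± 0.33), with C10WT groups at 15.58 ± 0.48 and 15.58 ± 0.57, and its interaction of -0.88 ± 0.40 (SE) did not pass (adjusted p = 0.593).

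Cardiomyocyte markers were high on all arrays, with a mean log2 of 17.25 to 18.33 over 8 genes. In 3 of the 16 arrays the mean of 6 adipocyte markers (Adipoq, Retn, Plin1, Cidec, Lep and Fabp4) stood apart, at 12.35 in C10S59L OMA1+/- replicate 1 and at 12.47 and 13.90 in C10S59L OMA1-/- replicates 1 and 2, against 6.53 to 8.66 in the other 13. C10S59L OMA1-/- replicate 2 also had the highest smooth muscle (14.46) and lymphocyte (8.11) marker means, against at most 11.84 and 6.05 elsewhere. Their part in the results was not tested. Without these 3 arrays, which left 3 C10S59L OMA1+/- and 2 C10S59L OMA1-/- hearts, 150 genes passed, 0.769% of those tested, including all 14 passing with every array. All 3 came from females, so the 2 C10S59L OMA1-/- hearts left were male and sex was not balanced in this fit. The part of sex in what this fit changed was not tested. The mean of 6 atrial markers (Myl4, Myl7, Sln, Nppa, Bmp10 and Stard10) ranged from 10.39 to 17.69 in C10S59L hearts and from 7.59 to 14.38 in C10WT hearts. Among C10WT hearts it was highest in C10WT OMA1-/- replicates 1 (12.88) and 4 (14.38).

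In 10 of the 14 genes the C10S59L OMA1+/- group stood above the other 3, and in 1, Etfbkmt, below them. C10S59L OMA1-/- stood apart once, for Lcn2, and C10WT OMA1+/- for Sult3a2 and Snap25, both below background in the mean of every group (2 C10WT OMA1+/- arrays of Snap25 were above it, at 7.22 and 6.62) and not described further as changes. For every gene but Snap25, all 4 arrays of the group that stood apart lay beyond all 12 other arrays. The genes were chosen by their interaction on these same arrays, which favours such separation. Its share over all genes was not counted, so this is a description. The S59L effect was smaller on OMA1-/- than on OMA1+/- in 8 genes, larger in 1 and of opposite sign in 5 (Ddx54, Etfbkmt, Vgll2 and both dim genes). Over all genes above background these shares were 48.8%, 36.4% and 14.8%. Because the 14 genes were chosen by their interaction, this split is a description too. Of the 5 genes of opposite sign, Ddx54, Vgll2 and Sult3a2 did not pass on OMA1-/-, and of the 8 with a smaller effect, Clec12a and Ccnd2 did not. Of the genes above background, Etfbkmt alone passed on both backgrounds with opposite signs.

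**Figure D1:**
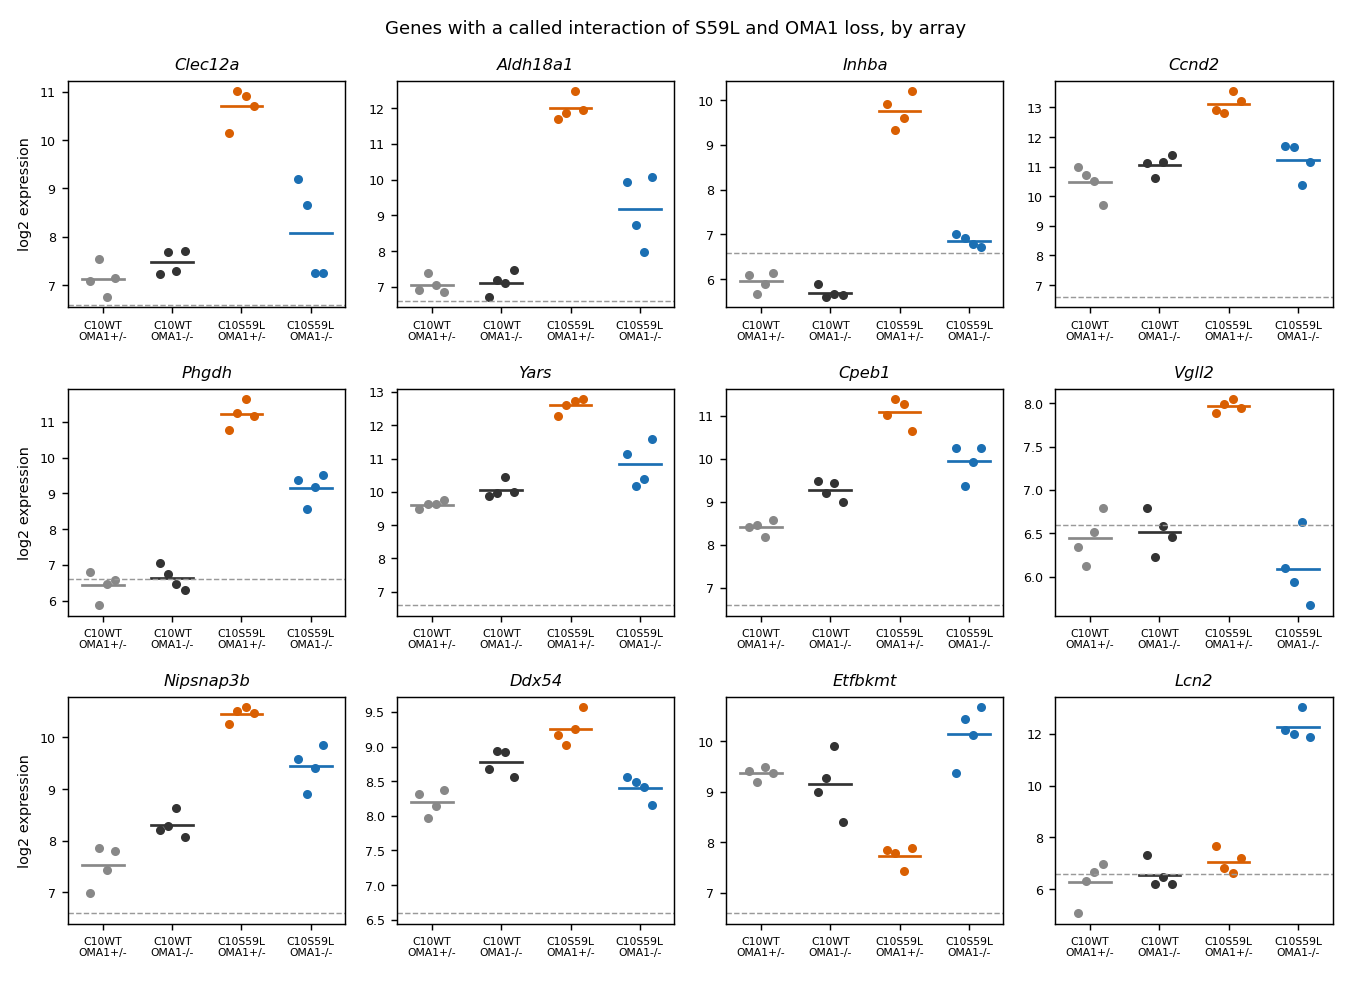
Log2 expression on each of the 16 arrays (points) with group means (bars) for the 12 genes above background whose interaction passed; y axes differ by gene and the dashed line is background at 6.59. C10S59L OMA1+/- (orange) is apart in all panels except Lcn2, where the 4 C10S59L OMA1-/- hearts (blue) lie between 11.89 and 13.03 and the other 12 do not exceed 7.66.

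Inhba encodes the beta A subunit of activin A, a secreted ligand of the TGF-beta family. It was below background on all C10WT arrays, at 5.68 to 6.13 on OMA1+/- and 5.60 to 5.89 on OMA1-/-. In C10S59L OMA1+/- hearts it read 9.91, 9.34, 9.60 and 10.21, and in C10S59L OMA1-/- hearts 7.02, 6.93, 6.78 and 6.72. The mutant groups did not overlap, and C10S59L OMA1-/- hearts were only just above background. S59L raised Inhba by at least 3.17 on OMA1+/- (adjusted p = 1.88e-09) and by at least 0.27 on OMA1-/- (adjusted p = 0.000339), and the fitted interaction was -2.65 ± 0.27 (adjusted p = 0.000358). OMA1 loss lowered it by 2.91 ± 0.19 on the log2 scale in C10S59L hearts (adjusted p = 3.54e-07).

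Lcn2 encodes lipocalin-2, a secreted protein that binds bacterial siderophores and is made by neutrophils and stressed tissues. It moved the other way. C10S59L OMA1-/- hearts read 12.16, 12.00, 13.03 and 11.89, and C10S59L OMA1+/- hearts 7.66, 6.80, 6.61 and 7.20. C10WT hearts lay between 5.07 and 7.34 on both backgrounds. S59L raised Lcn2 by 5.71 ± 0.38 on OMA1-/- (adjusted p = 6.23e-08) and by 0.80 ± 0.38 on OMA1+/-, which did not pass (adjusted p = 0.108). The interaction was 4.91 ± 0.54 (adjusted p = 0.000418). Of the genes above background, Inhba and Lcn2 alone passed with each of the 16 arrays left out in turn. The other 10 missed the threshold without some single arrays, in 4 (Cpeb1, Vgll2 and Etfbkmt), 9 (Phgdh), 10 (Yars), 11 (Ccnd2), 12 (Aldh18a1 and Clec12a), 13 (Nipsnap3b) and 14 (Ddx54) of the 16 cases, with adjusted p at most 0.0697 to 0.142 and the sign kept in every case.

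Among the other genes that passed were 3 enzymes of amino acid supply and tRNA charging. Phgdh encodes the first enzyme of serine synthesis from glycolysis. It read 10.78, 11.25, 11.64 and 11.17 in C10S59L OMA1+/- hearts and 9.36, 8.57, 9.18 and 9.51 in C10S59L OMA1-/- hearts, against 5.87 to 7.06 in C10WT hearts. All mutant hearts were thus above all controls, and the mutant groups did not overlap. The S59L effect was 4.79 ± 0.26 on OMA1+/- and 2.52 ± 0.26 on OMA1-/- (adjusted p = 2.02e-09 and 4.3e-06), and the interaction was -2.27 ± 0.37 (adjusted p = 0.0229).

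Aldh18a1 encodes the enzyme that starts proline synthesis from glutamate in mitochondria. Its values were 11.70, 11.87, 12.48 and 11.94 in C10S59L OMA1+/- hearts and 9.94, 8.73, 7.97 and 10.08 in C10S59L OMA1-/- hearts, with C10WT hearts between 6.71 and 7.47. The spread of the C10S59L OMA1-/- hearts (SD 1.01) was wider than that of C10S59L OMA1+/- hearts (0.34). S59L raised it by 4.94 ± 0.36 and 2.06 ± 0.36, respectively, and the interaction was -2.88 ± 0.51 (adjusted p = 0.0388). Yars encodes cytosolic tyrosyl-tRNA synthetase and read 12.29, 12.60, 12.73 and 12.79 against 11.15, 10.18, 10.39 and 11.60 in the mutant groups, with C10WT hearts between 9.47 and 10.43. Its interaction was -2.23 ± 0.36 (adjusted p = 0.0233), and replicates 2 and 3 of C10S59L OMA1-/- lay within the range of controls.

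The remaining genes with interactions below 0 came from several roles. Clec12a, an inhibitory lectin receptor of myeloid cells, was between 10.15 and 11.02 in C10S59L OMA1+/- hearts and at 9.19, 8.65, 7.25 and 7.25 in C10S59L OMA1-/- hearts, the last 2 within the range of C10WT hearts (6.75 to 7.71). S59L raised Clec12a by 3.57 ± 0.36 on OMA1+/- (adjusted p = 1.31e-06). On OMA1-/- it differed by 0.61 ± 0.36, which did not pass (adjusted p = 0.212). Its interaction was -2.96 ± 0.51 (adjusted p = 0.034). Macrophage marker means are given below. Among C10S59L OMA1-/- hearts their mean was highest in replicate 3 (12.33), where Clec12a read 7.25. Ccnd2, cyclin D2, which drives entry into the cell cycle, rose by 2.64 ± 0.31 with S59L on OMA1+/- (adjusted p = 6.75e-06) and differed by 0.16 ± 0.31 on OMA1-/- (adjusted p = 0.731). Its values were 12.92, 12.80, 13.56 and 13.22 in C10S59L OMA1+/- hearts and 11.69, 11.65, 10.38 and 11.15 in C10S59L OMA1-/- hearts, the latter overlapping C10WT hearts (9.71 to 11.38). Its interaction of -2.49 ± 0.44 passed at an adjusted p of 0.0388.

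Cpeb1, an RNA-binding regulator of polyadenylation and translation, had an interaction of -2.0 ± 0.31 (adjusted p = 0.0179), and S59L raised it on both backgrounds, by 2.68 ± 0.22 and 0.67 ± 0.22 (adjusted p = 2.06e-07 and 0.0303). The mutant groups lay at 10.65 to 11.39 and 9.37 to 10.25 without overlap, and C10WT hearts were higher on OMA1-/- (9.0 to 9.47) than on OMA1+/- (8.19 to 8.58), a difference of 0.87 ± 0.22 that did not pass (adjusted p = 0.712). Nipsnap3b, of a family of mitochondrial proteins, likewise rose on both, by 2.94 ± 0.23 and 1.14 ± 0.23, with an interaction of -1.80 ± 0.33 (adjusted p = 0.0467), and its mutant groups lay at 10.26 to 10.59 and 8.91 to 9.86. Its C10WT hearts were also higher on OMA1-/- (8.07 to 8.63) than on OMA1+/- (6.98 to 7.86). That difference of 0.78 ± 0.23 did not pass (adjusted p = 0.712). Vgll2, a cofactor of TEAD transcription factors known from skeletal muscle, was above background only in C10S59L OMA1+/- hearts (7.89, 7.99, 8.05 and 7.94) apart from single arrays of the other groups, the highest at 6.79. With S59L it rose by 1.53 ± 0.21 on OMA1+/- (adjusted p = 3.53e-05) and differed by -0.43 ± 0.21 on OMA1-/- (adjusted p = 0.135). Its interaction was -1.96 ± 0.30 (adjusted p = 0.0179). Ddx54, a nucleolar RNA helicase, rose by 1.05 ± 0.18 with S59L on OMA1+/- (adjusted p = 0.000249) and differed by -0.36 ± 0.18 on OMA1-/- (adjusted p = 0.133), with an interaction of -1.42 ± 0.25 (adjusted p = 0.0412). It read 9.17, 9.02, 9.26 and 9.57 in C10S59L OMA1+/- and 8.56, 8.49, 8.41 and 8.16 in C10S59L OMA1-/- hearts, and C10WT hearts were at 7.97 to 8.37 on OMA1+/- and 8.56 to 8.93 on OMA1-/-.

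Etfbkmt encodes a mitochondrial lysine methyltransferase of the electron transfer flavoprotein. It was lowered by S59L on OMA1+/- and raised on OMA1-/-. C10S59L OMA1+/- hearts read 7.84, 7.78, 7.43 and 7.88 and C10S59L OMA1-/- hearts 9.37, 10.45, 10.12 and 10.68, whereas C10WT hearts lay between 8.41 and 9.90. The S59L effect was -1.63 ± 0.29 on OMA1+/- (adjusted p = 0.000364) and 1.01 ± 0.29 on OMA1-/- (adjusted p = 0.015), and the interaction was 2.64 ± 0.41 (adjusted p = 0.0179).

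Most genes that rose or fell with S59L on OMA1+/- also did so on OMA1-/-. The S59L effects on OMA1+/- and OMA1-/- rest on separate arrays, whereas the interaction shares its arrays with both. Of 3429 genes above background that rose on OMA1+/-, with a median of 1.24, 68.6% also rose on OMA1-/-, where their median was 0.99, and 74.9% had a smaller effect there, with a median of 76.2% of the effect kept. For the 656 that rose by more than 2, the medians were 2.55 and 1.97 and 85.2% were smaller. In the other direction, 2942 genes that rose on OMA1-/- had a median of 1.18 there and 1.24 on OMA1+/-, and 49.4% were smaller on OMA1+/-. Choosing genes by 1 background favours large values there, so both directions are given. Of 1822 that fell on OMA1+/- (median -1.01), 63.6% fell on OMA1-/- (median -0.85) and 69.4% were smaller there, while of 1610 that fell on OMA1-/-, 62.5% were smaller on OMA1+/-.

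Among 10920 genes above background, 1185 had an unadjusted interaction p under 0.05, 815 below 0 and 370 above 0. C10S59L OMA1+/- stood above the other 3 groups in 42.7% of these, against 23.7% of all 10920, and C10S59L OMA1-/- stood above them in 10.6%, against 14.2%. These shares describe the data and carry no test.

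**Figure D2:**
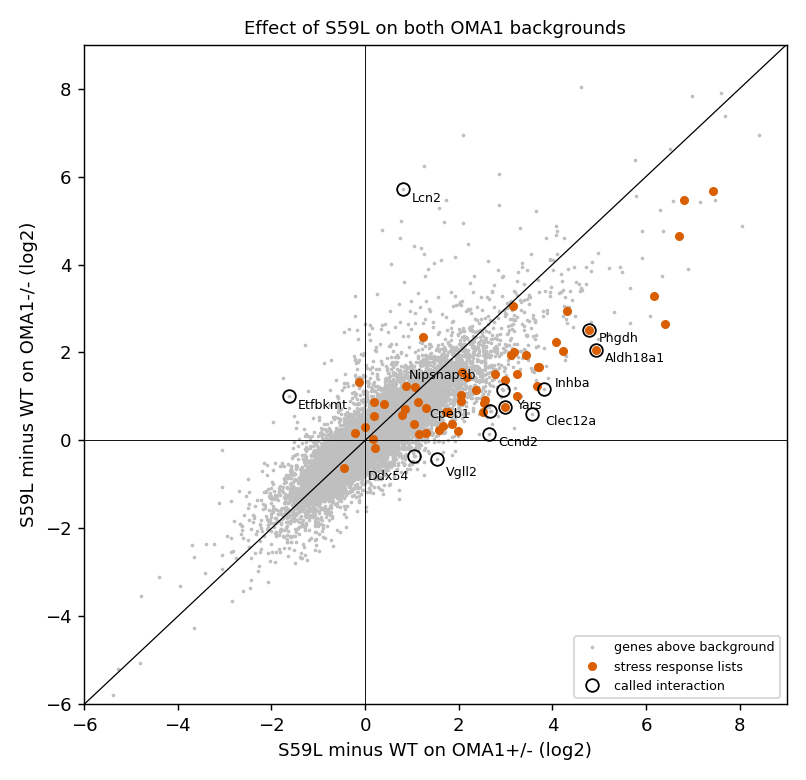
Effect of S59L (log2 difference from C10WT) on OMA1+/- (x axis) and OMA1-/- (y axis) for the 10920 genes above background (grey), with ISR, serine and one-carbon, transporter and tRNA synthetase list members in orange and the 12 genes above background that passed circled. Most orange points with a large effect on OMA1+/- lie to the right of the diagonal of equal effects, and Lcn2 lies far above it at 0.80 and 5.71.

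The stress response genes were examined by lists of known members. Counts at an unadjusted p under 0.05 in these and later lists stand beside 8.12% of all genes. The study itself names several of them from these hearts, so their direction is not independent evidence. Of the 13 ISR factors and regulators measured, S59L raised 10 on OMA1+/- (18.6% of all genes rose) and 7 on OMA1-/- (15.8% of all genes). The interaction passed in 0 of 13, with 4 at an unadjusted p under 0.05, and its median over the 11 above background was -1.12, against -0.05 over all genes above background. Of the 8 above background that rose on OMA1+/-, all 8 had a smaller effect on OMA1-/-, with a median of 45.0% of the effect kept and a range from 13.3% to 96.6%. Genes chosen for rising on OMA1+/- tend to be smaller on the other background, and over all genes above background chosen in this way 74.9% were smaller and a median of 76.2% was kept.

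Atf4 encodes the main transcription factor of the response. Its values were 15.63, 15.63, 15.89 and 15.89 in C10S59L OMA1+/- hearts, 14.44, 13.29, 13.16 and 15.18 in C10S59L OMA1-/- hearts, and 11.87 to 12.59 in C10WT hearts. All 8 mutant hearts were above all controls, and the mutant groups did not overlap. OMA1 loss lowered Atf4 by 1.74 ± 0.34 on the log2 scale in C10S59L hearts (adjusted p = 0.0202), but the interaction of -2.05 ± 0.48 did not pass (adjusted p = 0.154). Atf5, a related factor of the mitochondrial stress response, read 10.64, 10.62, 12.20 and 11.69 against 9.47, 7.96, 8.50 and 10.43, with an interaction of -2.03 ± 0.60 (adjusted p = 0.302).

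Chac1, which degrades glutathione and is a sensitive ATF4 target, lay between 3.91 and 4.18 in C10WT hearts and read 7.90, 8.59, 9.42 and 7.40 in C10S59L OMA1+/- hearts. In C10S59L OMA1-/- hearts it read 6.62, 4.34, 5.15 and 7.97, so that replicates 2 and 3 were below background while replicate 4 was within the range of C10S59L OMA1+/-. Its fitted interaction was -2.19 ± 0.78 (adjusted p = 0.424). Trib3, a pseudokinase that restrains ATF4, gave -1.35 ± 0.57 (adjusted p = 0.543) and Ddit3, which encodes CHOP, -1.15 ± 0.58 (adjusted p = 0.639).

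Not every regulator followed this pattern. Nupr1, a stress-induced chromatin protein, read 11.93, 11.14, 11.36 and 11.69 in C10S59L OMA1+/- and 10.96, 12.25, 11.32 and 11.25 in C10S59L OMA1-/- hearts, so the mutant groups overlapped. S59L raised it by 3.16 ± 0.28 and 3.05 ± 0.28, with an interaction of -0.11 ± 0.40 (adjusted p = 0.973). Ddit4, an inhibitor of mTORC1, had an interaction above 0, at 1.46 ± 0.71 (adjusted p = 0.62), and Cebpb and Ppp1r15b were at 0.32 ± 0.31 and 0.41 ± 0.36. Upstream, Dele1 gave -0.77 ± 0.48 and Eif2ak1, which encodes HRI, 0.40 ± 0.32 (adjusted p = 0.738 and 0.814).

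The sequence TGATGNAAN, the core of the C/EBP-ATF response element at which ATF4 pairs with C/EBP proteins, was searched on both strands from 250 bases before to 50 bases after the start of each gene (RefSeq, GRCm38.p6). It was found in 3.95% of 32851 windows and for 4.50% of 27025 genes. It was present for 4 of 12 ISR regulators with a window (Atf3, Trib3, Nupr1 and Chac1), 4 of 11 tRNA synthetases (Yars, Iars, Gars and Tars), 2 of 9 transporters (Slc7a11 and Slc1a4), Asns of 12 serine, one-carbon, proline and asparagine genes, and Fgf21. Of the genes with an interaction that passed, 12 had a window and 1, Yars, a match. Stretches for 4 of these genes are shown because they carry the element in genes of different roles; capitals mark the match, and Slc7a11 holds 1 on each strand.
Yars, chr4:129189851-129189932, plus strand: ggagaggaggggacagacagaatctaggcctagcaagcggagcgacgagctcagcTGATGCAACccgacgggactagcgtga
Asns, chr6:7693189-7693287, minus strand: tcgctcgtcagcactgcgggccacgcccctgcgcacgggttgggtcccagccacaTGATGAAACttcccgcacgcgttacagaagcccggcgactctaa
Slc7a11, chr3:50443618-50443734, minus strand: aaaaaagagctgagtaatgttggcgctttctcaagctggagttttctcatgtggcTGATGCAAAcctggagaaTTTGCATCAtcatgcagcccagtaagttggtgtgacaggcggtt
Chac1, chr2:119350993-119351091, plus strand: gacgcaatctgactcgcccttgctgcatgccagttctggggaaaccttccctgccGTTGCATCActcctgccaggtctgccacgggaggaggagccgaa
The matches are a description of the letters. The interaction was -0.11 for Nupr1 and -2.19 for Chac1, both with a match, and -2.27 for Phgdh and -2.88 for Aldh18a1, which are not among the matching genes of their list.

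Of the 13 serine, one-carbon, proline and asparagine genes measured, S59L raised 8 on OMA1+/- and 7 on OMA1-/- (18.6% and 15.8% of all genes). The interaction passed in 2 (Phgdh and Aldh18a1, both below 0), where 0.0513% of all genes passed below 0. An unadjusted p under 0.05 was found for 8, against 8.12% of all genes. Its median over the 12 above background was -1.71. In C10S59L hearts OMA1 loss lowered 6 of 13, where 0.625% of all genes fell, and 9 had all C10S59L OMA1+/- arrays above all C10S59L OMA1-/- arrays, as did 4.58% of genes above background. All 8 genes raised on OMA1+/- were raised less on OMA1-/-, keeping a median of 53.8% of the effect, against 74.9% of all genes chosen in this way and a median of 76.2% kept.

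Most mitochondrial folate enzymes were among them. Mthfd2l, another of them, was not, with an S59L effect of -0.21 on OMA1+/- (adjusted p = 0.529) and an interaction of 0.39 ± 0.37. Shmt2, which makes glycine and a one-carbon unit from serine in mitochondria, read 11.04, 10.69, 11.66 and 10.91 in C10S59L OMA1+/- hearts and 9.90, 8.30, 9.64 and 9.71 in C10S59L OMA1-/- hearts, with C10WT hearts at 7.40 to 8.87. Its interaction was -2.22 ± 0.45 (adjusted p = 0.0735). Mthfd2, the next enzyme of that pathway, read 14.45, 14.76, 15.51 and 15.20 against 13.58, 10.64, 12.97 and 13.63, and S59L raised it by 7.42 ± 0.51 and 5.68 ± 0.51. Its groups did not overlap and OMA1 loss lowered it in C10S59L hearts by 2.28 ± 0.51 on the log2 scale (adjusted p = 0.0451), but the interaction was -1.74 ± 0.73 (adjusted p = 0.532).

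Asns, asparagine synthetase, rose by 6.82 ± 0.36 and 5.48 ± 0.36, with mutant values of 15.49, 16.01, 15.98 and 16.01 against 14.14, 12.53, 13.99 and 15.11 and an interaction of -1.34 ± 0.51 (adjusted p = 0.499). Psat1, the second enzyme of serine synthesis, gave -2.07 ± 0.80 (adjusted p = 0.507), with C10S59L OMA1-/- hearts spread from 8.50 to 12.44. The cytosolic enzymes Shmt1 and Mthfd1 gave -0.12 ± 0.47 and -0.39 ± 0.33, and Psph, the last enzyme of serine synthesis, -0.16 ± 0.33.

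Amino acid transporters bring in the building blocks that the same program supplies. Of 13 measured, S59L raised 11 on OMA1+/- and 8 on OMA1-/-, where 18.6% and 15.8% of all genes rose. The interaction passed in 0 with 9 at an unadjusted p under 0.05, and its median was -1.32. OMA1 loss lowered 7 in C10S59L hearts (0.625% of all genes), and 8 had no overlap of the mutant groups (4.58% of genes above background). Slc7a3, a cationic amino acid transporter, was below background in all C10WT hearts and read 11.38, 11.72, 12.33 and 12.34 in C10S59L OMA1+/- and 9.55, 7.01, 7.85 and 9.72 in C10S59L OMA1-/- hearts. S59L raised it by at least 5.35 and at least 1.94, and the fitted interaction of -3.77 ± 0.69 fell just short of the threshold (adjusted p = 0.0517).

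Slc7a11, the cystine transporter, gave -2.43 ± 0.49 (adjusted p = 0.073), with 10.08, 10.32, 9.44 and 10.92 against 8.49, 6.89, 6.82 and 7.68. Slc3a2, the heavy chain that pairs with several of these carriers, had little spread and gave -1.16 ± 0.23 (adjusted p = 0.0641), with 15.68, 15.89, 15.71 and 15.73 against 14.72, 14.90, 15.18 and 15.06. Slc7a5, a carrier of large neutral amino acids, gave a fitted -2.88 ± 0.68 (adjusted p = 0.159). Of the 13 transporters 9 were below 0, against 54.3% of all genes above background. The 4 above 0 were Slc1a5, Slc43a1 (0.68), Slc7a6 (0.36) and Slc43a2 (0.15), the last 3 named after their values were seen. Slc1a5, a glutamine carrier, stood at 1.11 ± 0.91 (adjusted p = 0.819) and at 0.05 without the 3 arrays with high adipocyte markers, and its 3 highest values (12.29, 12.85 and 14.65) were on those arrays.

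Of 18 cytosolic tRNA synthetases measured, S59L raised 16 on OMA1+/- and 12 on OMA1-/- (18.6% and 15.8% of all genes), and OMA1 loss lowered 7 in C10S59L hearts (0.625% of all genes). The interaction passed for Yars, and 12 had an unadjusted p under 0.05. It was below 0 for 17, against 54.3% of all genes above background, and the median was -1.10. All 16 that rose on OMA1+/- rose less on OMA1-/-, keeping a median of 49.1%, where 74.9% of all genes chosen in this way were smaller and kept a median of 76.2%. Iars, for isoleucine, gave -1.73 ± 0.41 (adjusted p = 0.159), with 12.64, 13.39, 13.39 and 13.37 against 12.24, 11.04, 11.47 and 12.47 in the mutant groups, and Mars1, for methionine, gave -1.47 ± 0.42 (adjusted p = 0.265). Qars, for glutamine, named after its value was seen, was the member above 0, at 0.36 ± 0.29.

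Fgf21, a circulating hormone of fasting and mitochondrial stress, was above background on 3 of 4 C10S59L OMA1+/- arrays (6.21, 6.74, 7.51 and 7.71) and on 0 of 4 C10S59L OMA1-/- arrays (5.81, 4.75, 4.69 and 5.72). OMA1 loss lowered it in C10S59L hearts by at least 0.45 (adjusted p = 0.0153), and the fitted interaction of -1.77 ± 0.47 did not pass (adjusted p = 0.224). Without the 3 arrays of high adipocyte markers it passed, at -2.08 (adjusted p = 0.0416), as did Shmt2 at -1.95, Slc7a3 at -3.70, Slc7a5 at -3.07, Slc7a11 at -2.68, Slc1a4 at -2.21, Slc6a9 at -1.78 (carriers named after their values were seen), Iars at -1.75 and Mars1 at -1.87 (adjusted p = 0.0408, 0.0105, 0.018, 0.0167, 0.036, 0.0171, 0.0459 and 0.0487, respectively). Other members came closer to 0 without these arrays, with Psat1 going from -2.07 to -0.92, Asns from -1.34 to -0.86 and Trib3 from -1.35 to -0.83, none of which passed in either fit. The median over the serine list went from -1.71 to -1.12, that over the ISR regulators from -1.12 to -0.86, that over the tRNA synthetases from -1.10 to -0.88 and that over the transporters from -1.32 to -1.68.

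The hearts of the C10S59L OMA1-/- group differed among themselves in this program. The mean over the 18 tRNA synthetases was 11.66, 10.79, 11.24 and 11.98 in replicates 1 to 4, against 12.27 to 12.61 in C10S59L OMA1+/- and 10.21 to 10.70 in C10WT hearts. The mean over the ISR regulators was 8.87, 8.34, 8.27 and 9.39, against 9.25 to 9.68 and 7.40 to 7.77. Replicates 1 and 4 were higher than replicates 2 and 3 in both means, and each pair held 1 female and 1 male. The SD in C10S59L OMA1-/- exceeded that in C10S59L OMA1+/- for 17 of 18 tRNA synthetases and 10 of 11 ISR regulators above background, and for 74.4% of all genes above background.

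**Figure D3:**
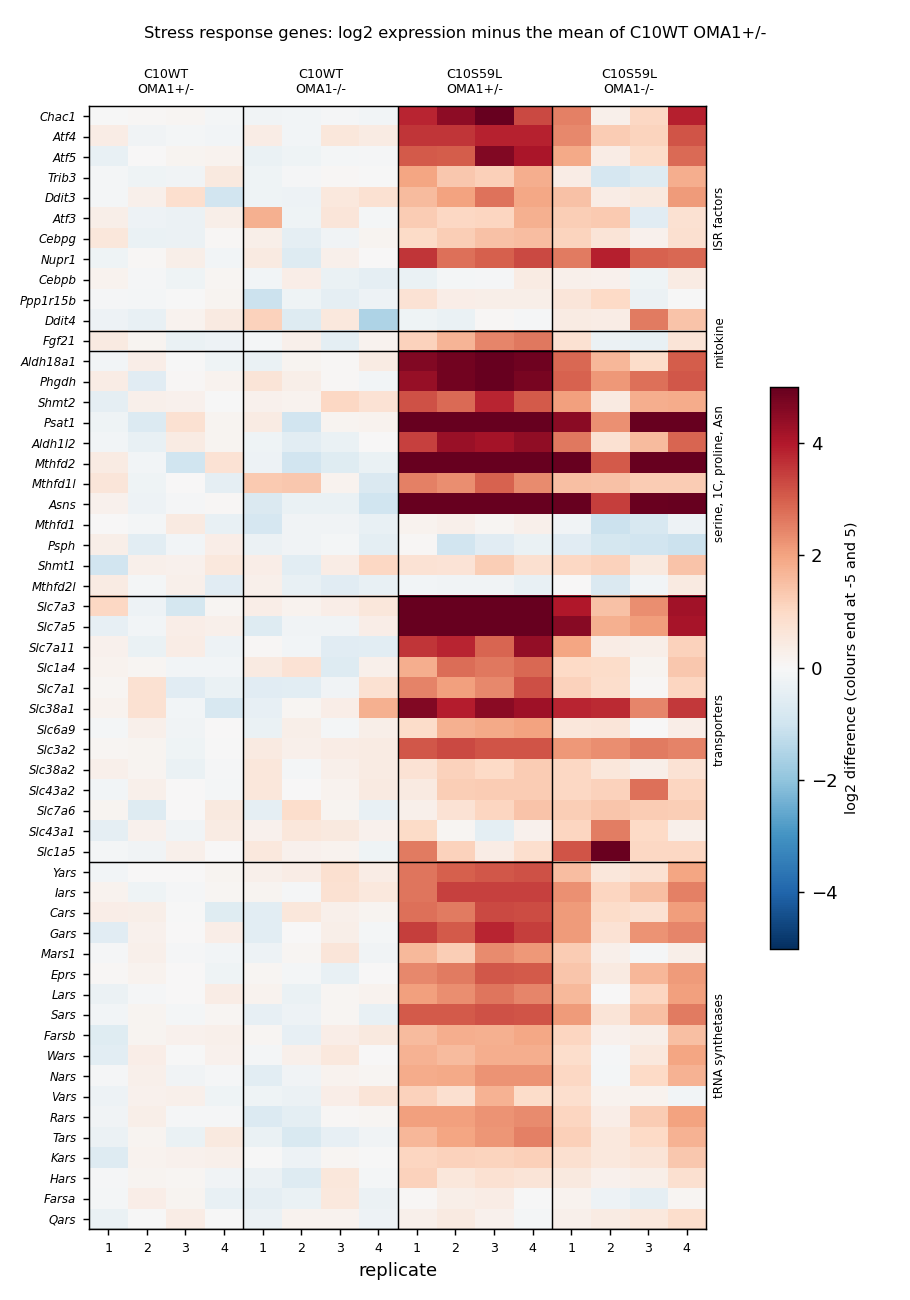
Log2 expression on each of the 16 arrays (columns, replicates 1 to 4 of each group) minus the mean of C10WT OMA1+/- for list members above background (rows), ordered by interaction within each list. Red fades from C10S59L OMA1+/- to C10S59L OMA1-/- in most rows, more in replicates 2 and 3 of C10S59L OMA1-/- than in 1 and 4, while the Nupr1 row keeps its colour.

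Mitochondrial chaperones and proteases refold or degrade proteins of the matrix. Of 13 measured, S59L raised 9 on OMA1+/- and 1 on OMA1-/- (18.6% and 15.8% of all genes). The interaction passed in 0 with 5 at an unadjusted p under 0.05. Its median was -0.50, with 12 of 13 below 0, against 54.3% of all genes above background. Lonp1, the main matrix protease, read 12.55, 13.12, 13.99 and 13.87 in C10S59L OMA1+/- and 12.13, 9.66, 11.63 and 11.76 in C10S59L OMA1-/- hearts, with C10WT hearts between 10.06 and 11.32. Its interaction was -2.08 ± 0.63 (adjusted p = 0.313) and OMA1 loss lowered it in C10S59L hearts (-2.09 ± 0.44, adjusted p = 0.0331). Hspd1, the chaperonin HSP60, gave -1.59 ± 0.42 (adjusted p = 0.217) and Htra2, a protease of the intermembrane space, -1.47 ± 0.42 (adjusted p = 0.283).

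Targets of NRF2, the regulator of antioxidant enzymes, rose on both backgrounds in 9 of 9 measured, where 18.6% of all genes rose on OMA1+/- and 15.8% on OMA1-/-. Their interaction passed in 0, with 2 at an unadjusted p under 0.05 and a median of -0.32, which was 0.05 once the 3 arrays with high adipocyte markers were left out. A median of 93.8% of the effect was kept, against 76.2% over all genes above background that rose on OMA1+/-. The effect was smaller on OMA1-/- in 7 of 9, against 74.9% of those genes. Srxn1, which repairs peroxiredoxins, rose by 7.47 ± 0.55 and 5.47 ± 0.55, with an interaction of -2.01 ± 0.78 (adjusted p = 0.506) that was -1.14 without the 3 arrays. Txnrd1, thioredoxin reductase, gave -1.63 ± 0.51 (adjusted p = 0.329). Genes of the endoplasmic reticulum unfolded protein response had a median of 0.12 and passed in 0 of 9, with 0 at an unadjusted p under 0.05. S59L raised 1 of the 9 on OMA1+/- and 3 on OMA1-/-, where 18.6% and 15.8% of all genes rose. Xbp1, its transcription factor, was the 1 raised on OMA1+/- and rose on both backgrounds, by 1.52 and 2.07 (adjusted p = 0.000131 and 1.39e-05).

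Of 12 cardiac stress and fetal genes, 10 rose on each background (18.6% and 15.8% of all genes), with a median interaction of -0.81 that passed in 0, and 4 at an unadjusted p under 0.05. Ostn, osteocrin, a secreted peptide that slows clearance of natriuretic peptides, read 13.83, 15.31, 15.04 and 15.73 against 13.02, 8.64, 11.81 and 13.03 in the mutant groups, with an interaction of -3.18 ± 0.95 (adjusted p = 0.306), which passed at -2.77 once the 3 arrays with high adipocyte markers were left out (adjusted p = 0.00629), where the list median was -0.47. Nppa, atrial natriuretic peptide, gave -3.0 ± 1.33 (adjusted p = 0.575). Its C10S59L groups overlapped (18.24 to 19.43), and its 2 highest C10WT OMA1-/- values, 16.37 and 18.65, were on replicates 1 and 4, the arrays with high atrial markers. Nppa is itself one of the atrial markers, so its own level is part of that marker mean. Of 4 complex IV subunits of the liver type, Cox6a1 and Cox8a rose by 3.45 and 2.57 on OMA1+/- and by 2.74 and 1.84 on OMA1-/- (all 4 passed), with interactions of -0.71 ± 0.35 and -0.73 ± 0.30 (adjusted p = 0.626 and 0.531). Cox7a2l differed by 0.49 on OMA1+/- (adjusted p = 0.0998) and rose by 1.0 on OMA1-/- (adjusted p = 0.00345), an interaction of 0.51 ± 0.32 (adjusted p = 0.738), and Cox7a2, named after its values were seen, passed on neither, at 0.23 and 0.06. Of 3 heart isoforms, Cox7a1 fell by 1.79 and 2.04 and Cox8b by 1.42 and 1.17 on the log2 scale (adjusted p = 0.000204, 0.000104, 0.000641 and 0.00385), Cox6a2 passed on neither background (-0.21 and -0.36), and their interactions lay between -0.25 and 0.25.

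**Figure D4:**
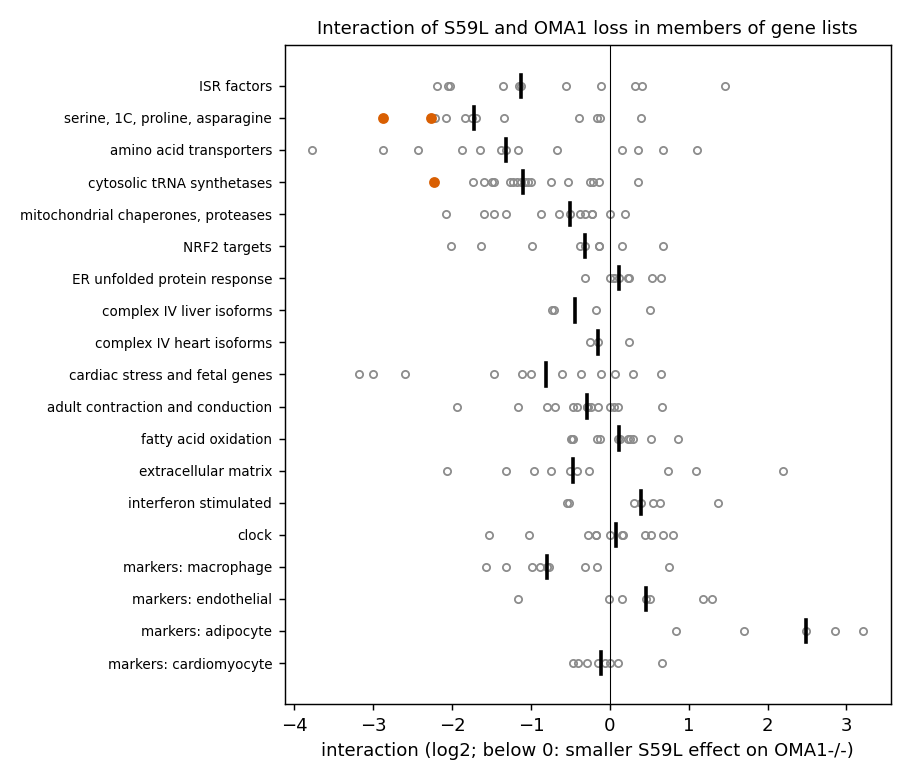
Fitted interaction (log2, x axis) of each list member above background (circles) with the list median (black bar); filled orange circles are the 3 members that passed. The medians of the ISR, serine and one-carbon, transporter and tRNA synthetase lists lie between -1.71 and -1.10, and those of the adipocyte and endothelial markers at 2.49 and 0.46.

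No member of the cell type marker lists had an interaction that passed. Of 9 macrophage markers, 8 rose on each background (18.6% and 15.8% of all genes), and their mean was 11.38 to 12.32 in C10S59L OMA1+/-, 10.86, 10.47, 12.33 and 10.94 in C10S59L OMA1-/-, and 8.93 to 9.50 in C10WT hearts. The median interaction was -0.80, with 8 of 9 below 0, against 54.3% of all genes above background, and 2 at an unadjusted p under 0.05. The median was -0.34 without the 3 arrays of high adipocyte markers. Adgre1, which encodes F4/80, read 9.51, 10.43, 10.15 and 10.06 against 8.09, 8.0, 8.79 and 7.86, and its interaction was -1.57 ± 0.32 (adjusted p = 0.073), which passed at -1.60 without those arrays (adjusted p = 0.0416). The part of macrophage content in the Clec12a result was not tested.

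Endothelial markers were lower with S59L in 7 of 7 on OMA1+/- and in 5 of 7 on OMA1-/-, where 17.9% and 14% of all genes fell, and 2 had an unadjusted interaction p under 0.05. Pecam1, an endothelial adhesion protein, gave 1.30 ± 0.46 and Kdr, the main VEGF receptor, -1.16 ± 0.54 (adjusted p = 0.424 and 0.612), so that members of the list went both ways. Without the 3 arrays Kdr passed at -2.13 (adjusted p = 0.0105). Fatty acid oxidation genes had a median of 0.12, and Acaa2, the thiolase of its last step, gave 0.87 ± 0.36 (adjusted p = 0.525). Adult contraction and conduction genes had a median of -0.29, with Kcnip2, a subunit of the transient outward potassium channel, at -1.94 ± 0.68 and Gja1, connexin 43, at -1.16 ± 0.39 (adjusted p = 0.414 and 0.376).

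The other lists held no interaction that passed. Medians here are over the members above background, and counts at an unadjusted p under 0.05 are over all members measured, beside 8.12% of all genes. Inner membrane and cristae quality control genes had a median of -0.20 with 2 of 15, immediate early genes -0.73 with 2 of 10 and interferon-stimulated genes 0.40 with 1 of 11. Clock genes stood at 0.07 over the 12 above background and at -0.03 over all 14, with 0 of 14, and the former was -0.37 without the 3 arrays of high adipocyte markers. Extracellular matrix genes had a median of -0.46 with 0 of 10, which was 0.30 without the 3 arrays. Markers of cardiomyocytes had a median of -0.11 with 0 of 8, and those of fibroblasts -0.38 with 0 of 6. Smooth muscle markers stood at 1.07 with 1 of 5, and at 0.06 without the 3 arrays. Adipocyte markers stood at 2.49 with 0 of 6, and at 0.90 without the 3 arrays. Brown adipocyte markers stood at 2.56 with 1 of 4, and at 1.09 without them, and atrial markers at -0.65 with 1 of 6, and at -2.48 without them. Lymphocyte (0.23, 0 of 7), mesothelial (-0.06, 0 of 5) and erythroid markers (1.06, 0 of 2) rested on 2, 3 and 2 members above background. Without the 3 arrays 3 more members of these lists passed, Lox, which cross-links collagen, at 4.65, the fibroblast marker Dpt at -1.94 and the clock gene Dbp, named after its value was seen, at -2.55 (adjusted p = 0.00487, 0.0447 and 0.0244).

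The same interaction was set beside that of the other CHCHD10 mutation, G58R, in 14-week-old hearts of the same OMA1 genotypes. Those 16 arrays are separate, so the contrasts share no sample, but mutation, age and cohort cannot be told apart. Per the study most C10G58R OMA1-/- pups died early, so that the 14-week animals were survivors. The sexes were not balanced in all 14-week groups. C10WT OMA1-/- held more males than females, and C10G58R OMA1+/- more females than males. Sex was not in this fit, and its part in the difference was not tested. The difference (S59L minus G58R) passed for 471 genes, 2.41% of those tested, 101 above 0 (0.518%) and 370 below 0 (1.9%). Of the 118 named genes, 32 passed, 30 of them lower for S59L. Some of these genes were named for a small p of the S59L interaction, which is part of this difference, so the count and its direction are a description.

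The difference passed below 0 for 5 of 13 genes of the serine list, 8 of 13 transporters and 9 of 18 tRNA synthetases, where 1.9% of all genes did, and above 0 for 0 of each. Their median interactions were -1.71, -1.32 and -1.10 for S59L and 0.69, 0.95 and 0.75 for G58R, while all genes above background had -0.05 and 0.07. Slc7a3 gave -3.77 ± 0.69 for S59L and 2.28 ± 0.58 for G58R, a difference of -6.05 ± 0.97 (adjusted p = 0.000595). Aldh18a1 gave -2.88 ± 0.51 and 1.63 ± 0.40 (adjusted p of the difference 0.000304), and Asns -1.34 ± 0.51 and 2.48 ± 0.62 (adjusted p = 0.0129). Atf4 gave -2.05 ± 0.48 and 0.24 ± 0.35 (adjusted p = 0.0373).

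Nmrk2, a nicotinamide riboside kinase of stressed muscle, had the largest difference of the named genes, at a fitted -2.59 ± 0.93 for S59L and 5.69 ± 0.71 for G58R (adjusted p = 0.000326). Inhba gave -2.65 ± 0.27 and 0.67 ± 0.30 (adjusted p = 1.67e-05). For Lcn2 both interactions were above 0, at 4.91 ± 0.54 and 6.27 ± 1.23, and the difference of -1.36 ± 1.46 did not pass (adjusted p = 0.728).

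**Figure D5:**
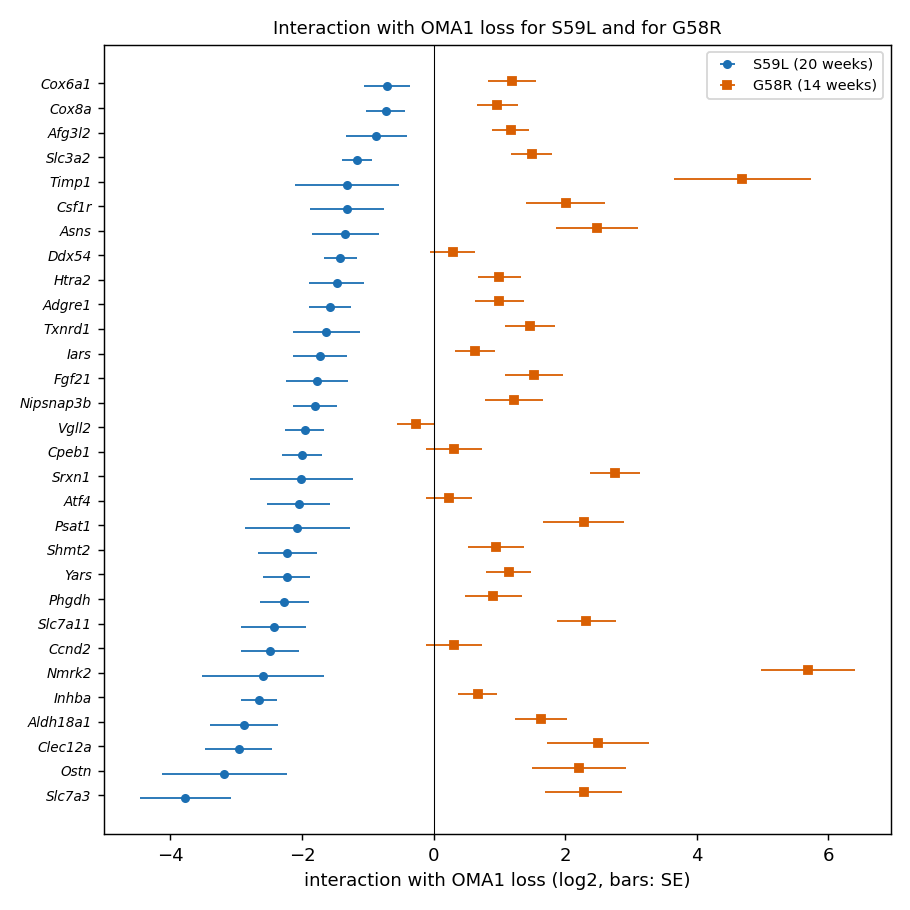
Interaction with OMA1 loss (log2 ± SE) for S59L at 20 weeks (blue circles) and G58R at 14 weeks (orange squares) in the 30 named genes above background whose difference passed. All 30 blue points lie below 0 and 29 orange points above 0, with Vgll2 (-0.27) the exception.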

How the data were processed

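RNA of whole hearts was hybridised to 1-colour Clariom S Mouse arrays, 1 array per animal. The deposited values are gene-level log2 signals that the authors made with the SST-RMA method of Transcriptome Analysis Console, whose empirical Bayes test they used. Joint or separate normalization of the 2 age cohorts, and the genome build of the array annotation, are not given in the sources used here. Of 28846 probe sets, 6640 controls and 2634 without a gene symbol were left out, and for 55 genes with several probe sets the one with the highest mean was kept, which left 19505 genes. Medians per array lay between 6.54 and 6.75, and 0 pairs of arrays held identical values. The number of arrays limits the precision, and a level is compared only within a gene.

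A model of the 4 group means was fitted to the 16 arrays in R 4.3.3 with the moderated test of limma 3.58.1, two-sided, with Benjamini-Hochberg adjustment over all genes and a threshold of 0.05, and was tested on simulated data. Values after ± are SE unless SD is written, n = 4 hearts a group. The difference from G58R was fitted to all 32 arrays and 8 groups, without sex in the model. Alternatives were a replicate block, sex or the adipocyte marker mean as a covariate, all 32 arrays in 1 fit, only genes above background, trend and robust options, quantile normalization and each array left out in turn. The fit without 3 arrays and values floored at background were added after seeing the data, and that fit left the sexes unbalanced. The sample labels do not say whether replicate numbers pair the samples, and no pairing was used in the main fit.

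Named genes were those whose interaction passed, including Snap25 and Sult3a2 below background, and every member of the ISR, DELE1, mitokine and serine lists. The 3 members of each other list with the smallest interaction p, Oma1 and Chchd10 were also named. The members, the lists and these rules were chosen with earlier results of these data known. List genes without a probe set of their symbol are not analysed here. Promoter windows came from RefSeq on GRCm38.p6.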

Additional observations from a re-analysis of the deposited data

Results flagged for a closer look

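In 26 of 472 groups of 4 tested, 1 heart lay far from the other 3, and chance flags about 1 in 20. C10S59L OMA1+/- replicate 1, an array of high adipocyte markers, held 8 of them. It was low for Asns (15.49, next 15.98), Iars (12.64, next 13.37), Gja1 (15.48), Ryr2 (12.97), and Acta2 (17.98), and high for Ppp1r15b (9.27), Ucp1 (12.43, next 4.24) and Col1a1 (10.46, next 8.92). In the same group Cox6a1 was high in replicate 3 (17.93) and Mthfd2l low in replicate 4 (7.59). In C10S59L OMA1-/-, Shmt2 was low in replicate 2 (8.30, next 9.64), Cox8b low (13.39) and Alas2 high (10.55) in replicate 3, and Sesn2, below background, high in replicate 4 (4.80).

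In C10WT OMA1+/- hearts replicate 1 stood apart for Dele1 (10.07), Cox7a1 (17.15) and Txnrd1 (9.17), which were low, and Atf4 (12.42) and Myl7 (10.99), which were high, replicate 4 for Trib3 (7.96, high), and replicate 2 for Elovl3 (3.63, below background). In C10WT OMA1-/- hearts replicate 3 was high for Dele1 (12.01) and Ier3 (10.96) and low for Lox (4.11), and replicate 2 was high for Sesn2 (3.68) and low for Alas2 (5.82).

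The interaction differed between S59L at 20 weeks and G58R at 14 weeks in 32 of 118 named genes (limma, adjusted over all genes). Among genes that passed for S59L the difference was -5.47 for Clec12a, -4.50 for Aldh18a1, -3.37 for Yars, -3.32 for Inhba, -3.18 for Phgdh, -3.02 for Nipsnap3b, -2.79 for Ccnd2, -2.32 for Cpeb1, -1.71 for Ddx54 and -1.69 for Vgll2. It was 1.97 for Snap25 and 2.52 for Sult3a2, both below background. For the ISR, serine and transport genes it was -2.30 for Atf4, -3.29 for Fgf21, -4.35 for Psat1, -3.17 for Shmt2, -3.82 for Asns, -6.05 for Slc7a3, -2.65 for Slc3a2, -4.75 for Slc7a11 and -2.36 for Iars. Mitochondrial genes gave -2.04 for Afg3l2, -2.46 for Htra2, -1.70 for Cox8a and -1.90 for Cox6a1, and NRF2 targets -3.10 for Txnrd1 and -4.76 for Srxn1. The rest were -5.39 for Ostn, -8.28 for Nmrk2, -6.0 for Timp1, -2.57 for Adgre1 and -3.33 for Csf1r. Mutation, age and cohort cannot be told apart in these differences, and the sexes were not balanced in all 14-week groups.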

How the results depend on the processing

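The interaction count of 14 genes was 12 with the replicate block (10 of them shared), 18 with sex as a covariate, 17 after quantile normalization, 21 with trend and robust options, 22 when only genes above background were tested, 22 with the adipocyte marker mean as a covariate, 49 with all 32 arrays in 1 fit and 150 without the 3 arrays of high adipocyte markers. Leaving out single arrays gave 3 to 38 genes, the fewest without C10WT OMA1+/- replicate 3 or C10S59L OMA1+/- replicate 2 or 3 and the most without C10S59L OMA1-/- replicate 1. Counts were 26 without C10S59L OMA1+/- replicate 1, 9 without C10S59L OMA1-/- replicate 3 or C10WT OMA1-/- replicate 1, 7 without C10WT OMA1+/- replicate 2, C10WT OMA1-/- replicate 4 or C10S59L OMA1+/- replicate 4, 5 without C10WT OMA1+/- replicate 4 and 4 without C10WT OMA1-/- replicate 3. The calls of Aldh18a1, Ccnd2, Nipsnap3b and Ddx54 were lost with the replicate block, of Clec12a with 32 arrays, of Nipsnap3b with the adipocyte covariate, and of Ddx54 with trend and robust options or quantile normalization. The causes were not tested.

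OMA1 loss in C10S59L hearts changed 284 genes with 32 arrays, 317 without the 3 arrays, and 46 to 267 without single arrays, where it was 46 and 48 without C10S59L OMA1+/- replicates 3 and 4, 102 without C10WT OMA1+/- replicate 3, 103 without C10S59L OMA1-/- replicate 2, and 264 and 267 without C10S59L OMA1-/- replicates 1 and 4. In C10WT hearts the count was 3 with 32 arrays, 0 among genes above background (limma, unadjusted p under 0.05 in 1113 of all genes) and 0 to 2 without single arrays. S59L changed 5429 to 7483 genes on OMA1+/- and 4405 to 6041 on OMA1-/- without single arrays. Among genes above background alone, rising genes were 65.2% of those changed on OMA1+/- and 64.0% on OMA1-/-, against 50.9% and 53.0% over all genes. The difference from G58R passed for 321 to 1043 genes without single arrays, 1043 without the 14-week C10WT OMA1+/- replicate 4 and 751 without C10S59L OMA1-/- replicate 4, and for 507 with the replicate block.

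Same-numbered samples did not deviate together in all pairs (11 of 24 correlations over 0.1, -0.22 to 0.25). Replicate number also went with sex within groups, so these correlations cannot decide whether samples were paired. The replicate block is therefore given only as an alternative fit. Without the 3 arrays the interaction changed sign for Sesn2 (0.09), Aldh1l1 (-0.09), Timp1 (0.20), Fabp4 (-0.15), Cd79a (-0.17), Cd3d (-0.11), Col1a1 (0.39) and Krt19 (-0.37). With values floored at background it did for Shmt1 (0.13), Npas2 (0.05) and Wt1 (0.01). Without single arrays it took both signs for Shmt1 (-0.40 to 0.20), Wt1 (-0.34 to 0.14), Psph (-0.33 to 0.01), Nupr1 (-0.38 to 0.06), Myl4 (-3.07 to 0.49), Myl7 (-3.54 to 0.45), Oma1 (-0.03 to 0.29), Cd79a (-0.08 to 1.94), Krt19 (-0.26 to 1.58), Cox7a1 (-0.53 to 0.15) and Cox6a2 (-0.25 to 0.01), and reached 0.00 for Eif2ak3 (0.00 to 0.42). None of these had passed.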
